A study of Mus musculus with 7899 samples.

Results

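p300, encoded by Ep300, was knocked out in mice of which β cells were read at G14.5, the labels' name for a day of mid-gestation. The members are the 4 libraries obtained by adding up, for each biological replicate, the reads of every cell labelled p300 knockout or p300 WT at that stage. They hold 360 of the 7897 single cells in the series: 195 p300KO cells, 80 of them in replicate 2 and the rest in replicate 1, and 165 p300WT cells, 56 of them in replicate 2. All cells came from the pancreas of female C57BL/6J mice on a standard diet, were flow-sorted from hand-picked islets and were read with Smart-seq3xpress, a plate method that covers whole transcripts. The same table holds 198 cells of p300 knockout and wild-type mice at G0, gestation day 0, again with 2 replicates a genotype. The sources used here do not give the age of the mice, how many were pooled in a replicate, the deleted exons of Ep300 or the promoter behind the deletion.

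Further groups serve for values side by side. The pregnancy table gave the genes that differ between G14.5 and G0 in mice without a listed genetic change. The Acss2 table holds an Acss2 knockout and its wild type at G14.5, in 232 cells. Cultured mouse islets were kept for 4 days in 20% human maternal serum (MS) with 5 μM A485, an inhibitor of the catalytic domain shared by p300 and CBP, or with its solvent DMSO, in 196 cells.

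p300 and its close relative CBP, encoded by Crebbp, are transcriptional coactivators that acetylate histones and other proteins at enhancers and promoters, using acetyl-CoA. ACSS2 is an enzyme that makes acetyl-CoA from acetate. In gestation, placental lactogens and prolactin act on β cells through the prolactin receptor, JAK2 and STAT5, and the β cells divide, secrete more insulin and begin to make serotonin through tryptophan hydroxylase.

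The 4 libraries at G14.5 held 86164445 to 136856415 reads, and the reads of Ins1 and Ins2 made up 54.4% to 60.2% of each. Levels are given as CPM, read counts scaled to a library of 1000000 reads by TMM library sizes. Summed β-cell markers came to 578700 to 634900 CPM on plain library sizes, so the label held in every library. Of the other cell types, 9 α-cell markers summed to 314.3 and 377.6 CPM in the knockout against 561.2 and 781.8 CPM in the wild type, and 15 hepatocyte markers to 235.3 and 303.6 against 452.3 and 637 CPM. Ttr, a thyroid hormone carrier that stands in both lists, was at 232 and 313 CPM against 448 and 589 CPM on TMM library sizes, whereas the sums use plain ones. Gcg, the glucagon gene that defines α cells, was at 2.36 and 3.24 CPM in the knockout and at 13.2 and 4.49 CPM in the wild type. Immune markers summed to 40.35 and 62.62 CPM in the knockout and at least 81.16 CPM in the wild type, while stromal markers stayed under 0.2 CPM. The δ-cell markers went the other way, at 26.45 and 20.26 CPM in the knockout against 12.14 and 14.22 CPM in the wild type, and Sst, the somatostatin gene that defines those cells, was at 14.8 and 19.3 against 8.45 and 9.29 CPM. The PP-cell markers summed to 8.267 and 8.994 against 8.22 and 3.57 CPM. The knockout libraries were thus lower in the α-cell, hepatocyte and immune sums and higher in the δ-cell sum. In the PP-cell sum, wild-type replicate 1 was nearly level with the knockout and wild-type replicate 2 was lower. Some sums lean on single genes, as Ttr on its own comes close to the hepatocyte sum and to most of the α-cell sum. The α-cell and hepatocyte sums are therefore not separate measures. C1qa, an immune gene, was at 59.6 and 36.2 CPM in the knockout and 82.6 and 67.2 CPM in the wild type. Of 9 tested α-cell markers, 6 had a log2 fold change below 0 and 3 above, and of 12 hepatocyte markers 8 and 3. The part of these differences in the results below was not tested.

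Ep300 itself (chromosome 15, 81585351 to 81652077, plus strand, GRCm38) was lower in the knockout but far from absent. Its level was 20.4 and 19.7 CPM in p300KO and 27.5 and 37.2 CPM in p300WT, a log2 fold change of -0.69 with a 95% interval of -1.25 to -0.13. The unadjusted p of edgeR's quasi-likelihood test was 0.0194 and the Benjamini-Hochberg adjusted p 0.369. At least 1 read of Ep300 was found in 86.96% and 83.75% of knockout cells (exact binomial 95% intervals 79.4% to 92.51% and 73.82% to 91.05%) and in 98.17% and 94.64% of wild-type cells. The counts add reads over the whole gene, so a transcript that has lost exons still counts, and the level does not measure the protein. At G0 the same genotypes stood at 15.9 and 11.9 CPM against 24.2 and 36.7 CPM, a log2 fold change of -1.13 (adjusted p = 0.0524). The paralog Crebbp, at 48.3 and 56.7 CPM in the knockout and 51.9 and 58.8 CPM in the wild type, overlapped between the genotypes (log2 fold change -0.08, interval -0.48 to 0.33). Acss2 was lower in both knockout libraries, at 18.7 and 25.7 CPM against 35.9 and 40.6 CPM, with a log2 fold change of -0.79 (interval -1.37 to -0.21, adjusted p = 0.31). At G0, Acss2 was at 21.7 and 17.7 CPM in the knockout and 13.6 and 22.4 CPM in the wild type, and the 2 genotypes overlapped.

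Over the whole transcriptome, edgeR called 0 of 13475 genes tested (0%) different between p300KO and p300WT at G14.5 at an adjusted p under 0.05. At an unadjusted p under 0.05 there were 1333 genes (9.89%), 626 higher and 707 lower in the knockout. The count of calls depended on the tool and on single libraries. DESeq2 called 294 genes on the same counts, 187 of them lower in the knockout, and limma on cell-averaged levels called 0. Without wild-type replicate 1 edgeR called 32 genes, without knockout replicate 2 it called 13, and without either of the others 1. Leaving out a G0 library, an alternative chosen after seeing the data, called 0.155% to 0.832% of the genes tested, the most without wild-type replicate 1. Both knockout libraries lay below both wild-type libraries for 2825 genes (21%) and above both for 3030 genes (22.5%), and these shares are the background for the gene groups below.

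**Figure D1:**
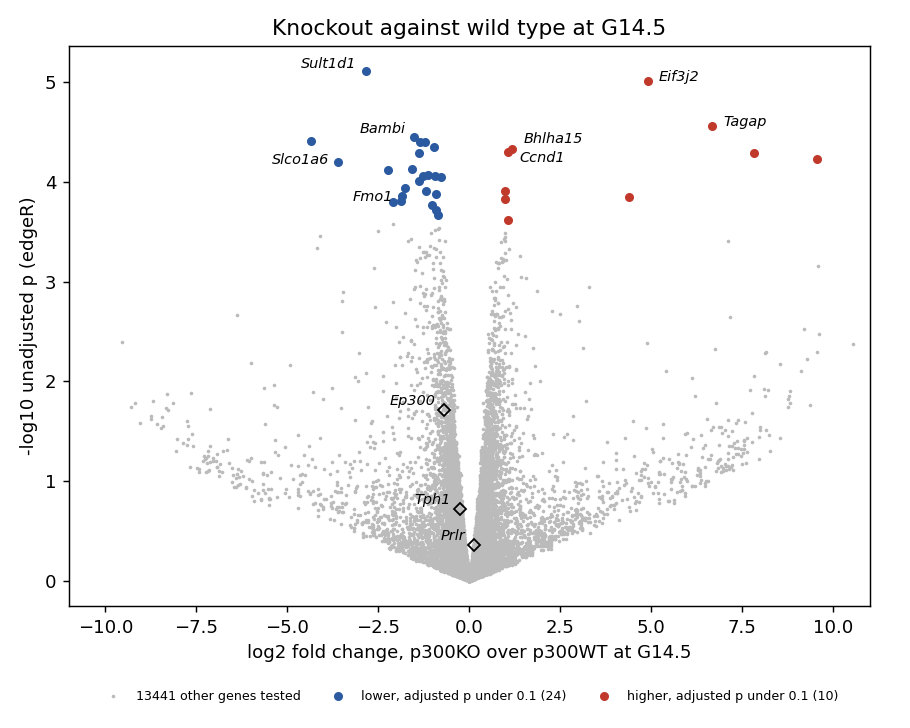
Log2 fold change (x axis, knockout over wild type at G14.5) against the -log10 of edgeR's unadjusted p (y axis) for the 13475 genes tested, 1 point a gene. Coloured points are the 34 genes with an adjusted p under 0.1, 24 lower and 10 higher; Tph1 and Prlr (open diamonds) sit near the centre and Ep300 to the left.

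The serotonin genes that gestation turns on were read in both genotypes at G14.5. Tph1, the tryptophan hydroxylase that starts serotonin synthesis in β cells (chromosome 7, 46644641 to 46672537, minus strand), was at 126.6 and 138.5 CPM in the knockout and 178 and 138.9 CPM in the wild type. The knockout values lay just below the lower wild-type library, and the log2 fold change was -0.26 (interval -0.67 to 0.15, adjusted p = 0.699), or -0.05 without wild-type replicate 1. Tph1 reads were found in 89.57% and 97.5% of knockout cells and in 89.91% and 82.14% of wild-type cells. Tph2, the second tryptophan hydroxylase gene, was at 20.6 and 18.2 CPM against 16.49 and 21.9 CPM, with overlapping genotypes and a log2 fold change of 0.02 (interval -0.67 to 0.70).

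The prolactin receptor and its feedback genes were read in every library, with log2 fold changes whose intervals included 0. In summed reads, both knockout libraries lay above both wild-type libraries in Prlr and below them in Cish and Socs2. Prlr, the prolactin receptor, was at 1318 and 1390 CPM in the knockout and at 1161 and 1310 CPM in the wild type. Its log2 fold change was 0.13 (interval -0.22 to 0.49). Cish and Socs2, feedback inhibitors that STAT5 induces, were at 141.4 and 200 against 206 and 201 CPM and at 101.6 and 140 against 152.04 and 146.7 CPM, with log2 fold changes of -0.25 (interval -0.87 to 0.36) and -0.31 (interval -0.72 to 0.11). Ghr, the growth hormone receptor, was lower in both knockout libraries, at 71.1 and 83.9 CPM against 116.7 and 134.01 CPM (log2 fold change -0.69, adjusted p = 0.157). Stat3 was at 78.4 and 74.7 CPM in the knockout and 66.8 and 62.4 CPM in the wild type, a log2 fold change of 0.25 (interval -0.11 to 0.60). Among 24 tested genes of prolactin receptor and JAK-STAT signalling, 11 (45.8%) lay below the wild type in both knockout libraries and 7 (29.2%) above. Over all genes these shares were 21% and 22.5%. The list had a median log2 fold change of -0.08 and 0 calls. That median was 0.01 without knockout replicate 1, -0.18 without knockout replicate 2 and -0.18 without wild-type replicate 1.

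Several of the strongest gestation genes were lower in the knockout while still far above G0. Fmo1, a flavin monooxygenase (chromosome 1, 162829561 to 162866610, minus strand), was at 227 and 205 CPM in p300KO and 862 and 692 CPM in p300WT. That is 0.278 times the wild-type level, a log2 fold change of -1.85 (interval -2.59 to -1.10, adjusted p = 0.0706). The median cell held 111.5 and 120.3 CPM of Fmo1 in the knockout and 741.9 and 594 CPM in the wild type, so the difference was not carried by a few cells. At G0 Fmo1 stood at 8.60 and 10.9 CPM in the knockout and 20.9 and 59.7 CPM in the wild type (log2 fold change -2.06, adjusted p = 0.0138).

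Sftpd, which encodes the secreted lectin surfactant protein D, was at 27.04 and 11.9 CPM in the knockout and 49.8 and 62.04 CPM in the wild type (log2 fold change -1.52, adjusted p = 0.22). Cldn8, a tight-junction claudin, was at 49.4 and 105.7 against 212 and 169 CPM (log2 fold change -1.29, adjusted p = 0.452). Tnfrsf11b, the decoy receptor osteoprotegerin, was at 14.6 and 23.1 against 35.1 and 50.2 CPM (log2 fold change -1.18, adjusted p = 0.484). For these genes every knockout library was below every wild-type library. Lrrc55, an auxiliary subunit of potassium channels, ran the other way, at 53.9 and 78.9 CPM in the knockout and 42.3 and 17.1 CPM in the wild type (log2 fold change 1.16, adjusted p = 0.56). Gbp8, Neb and Crispld2 overlapped between the genotypes, with log2 fold changes of -0.20, -0.06 and -0.48. Mctp1 was at 13.7 and 11.1 against 10.1 and 9.70 CPM (log2 fold change 0.32, interval -1.33 to 1.98).

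Of the 15 genes with the highest fold change between G14.5 and G0 in the pregnancy table, 6 lay below the wild type in both knockout libraries (Tph1, Cldn8, Sftpd, Fmo1, Cish and Tnfrsf11b), 2 above (Lrrc55 and Mctp1), and 7 overlapped. Their median log2 fold change was -0.26, and over all genes 21% lay below and 22.5% above. Of the 10 genes with the lowest fold change in gestation, 4 lay below and 3 above, and their median, -0.61, was further below 0. Cib3, a calcium- and integrin-binding protein, is one that gestation lowers and that was lower again in the knockout, at 1.43 and 2.64 CPM against 6.12 and 8.66 CPM (log2 fold change -1.87, adjusted p = 0.0716). Tox, a chromatin protein, and Cryba2, a crystallin, also fall in gestation, and their log2 fold changes with p300 loss were -0.99 and -1.20 (adjusted p = 0.297 and 0.255).

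**Figure D2:**
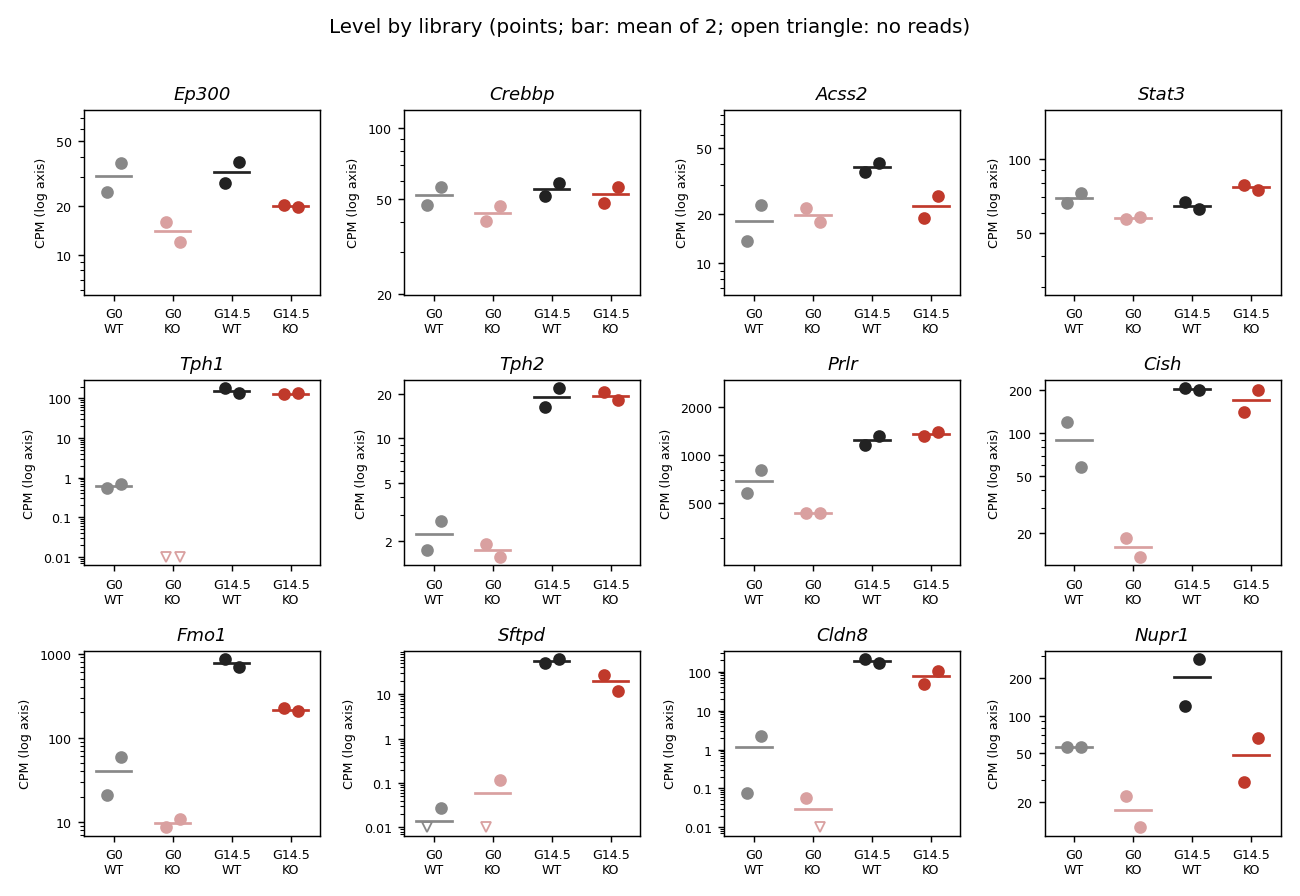
CPM (log axes) of 12 genes in each of the 8 libraries of the p300 table, 1 point a library, with a bar at the mean of 2 and open triangles for libraries without a read. Tph1, Tph2, Prlr and Cish had log2 fold changes of -0.26, 0.02, 0.13 and -0.25 at G14.5. In Tph1 and Cish both knockout libraries sit below both wild-type libraries, as they do in Fmo1, Sftpd, Cldn8, Nupr1, Acss2 and Ep300.

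The pregnancy table called 916 of 15373 genes higher (5.96%) and 638 lower (4.15%) at G14.5 than at G0, and 914 and 635 of them were tested in the p300 table. Of the 914, 273 lay below and 181 above the wild type in both knockout libraries, with a median log2 fold change of -0.07 beside 0.00 over all genes. Among the 292 tested genes that gestation raises at least 2-fold, 35.3% lay below and 14.7% above, against 21% and 22.5% of all genes. Their median was -0.24, and 192 of the 292 had a log2 fold change below 0. None of them was called by edgeR, 40 were lower and 9 higher at an unadjusted p under 0.05, and their median was -0.14 without wild-type replicate 1, without which that of the 914 was -0.003. DESeq2 called 23 of the 914 lower and 11 higher, and of the 635 genes that gestation lowers it called 28 lower and 2 higher. Among all 13475 genes tested, DESeq2 called 294, of which 187 were lower and the others higher. Whether the shares in these lists differ from those of all genes was not tested. Averaged over the 292 genes, the log2 level relative to wild-type G0 was 1.44 and 1.46 in the G14.5 knockout libraries and 1.78 and 1.66 in the wild type. At G0 the knockout libraries started lower, at -0.60 and -0.60, and the wild type at -0.19 and 0.19. Within each genotype, gestation raised 169 of 13475 genes in the wild type (1.25%) and 288 in the knockout (2.14%), and among the 292 genes these shares were 26.03% and 39.38%. The 81 tested genes raised at least 8-fold had a median of -0.51, with 30 below and 8 above. For the 635 tested genes that fall in gestation, 25.7% lay below and 22.8% above, with a median of -0.03. Of the 217 that fall at least 2-fold, 59 lay below and 45 above, 33 were lower and 10 higher at an unadjusted p under 0.05, and the median was -0.04.

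The 34 genes with an adjusted p between 0.0582 and 0.1 are the nearest to a call, and the smallest value, 0.0582, is shared by 12 of them. They were chosen after their values were seen, except those in a fixed list. Several enzymes and transporters are on the lower side. Sult1d1, a sulfotransferase, was at 1.36 and 2.85 CPM in the knockout and 16.6 and 13.5 CPM in the wild type (log2 fold change -2.84, SE 0.40, adjusted p = 0.0582). Slco1a6, an organic anion transporter, was at 4.61 and 2.82 against 56.9 and 33.4 CPM (log2 fold change -3.60, adjusted p = 0.0607). Both genes were lower by more than the spread between either pair of G14.5 replicates. At G0, however, the wild-type replicates of Slco1a6 themselves stood at 12.1 and 59.3 CPM.

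Gstm1, a glutathione transferase, was at 10.7 and 10.8 against 25.7 and 24.8 CPM, Adh1, an alcohol dehydrogenase, at 24.3 and 23.7 against 57.7 and 59.1 CPM, and Abca1, the cholesterol exporter, at 12.8 and 16.3 against 29.9 and 46.1 CPM. Their log2 fold changes were -1.23, -1.28 and -1.38. Serpina10, a secreted protease inhibitor, was at 32.3 and 24.3 against 60.02 and 85.97 CPM (log2 fold change -1.37). Kcnf1, a silent potassium channel subunit, was at 2.10 and 1.63 against 9.003 and 8.55 CPM (log2 fold change -2.23). Tmsb4x, the actin-binding thymosin β4, was at 135.4 and 112.1 against 242 and 245 CPM (log2 fold change -0.98). Fxyd3, a regulator of the sodium pump, was near the limit of detection in the knockout, at 0.142 and 0.641 CPM against 5.34 and 10.52 CPM (log2 fold change -4.36).

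Of the 24 genes on the lower side, 23 also had a log2 fold change below 0 at G0, in other libraries. Over all genes, the G0 median was -0.00386. Called lower at G0 were 6 of the 24, beside 1.06% of all genes: Kcnf1, Fmo1, Abca1, Adh1, Glul and Rnase4. Abca1 had a G0 log2 fold change of -1.91 (adjusted p = 0.00198) and Adh1 of -1.77 (adjusted p = 0.00239). Glul, glutamine synthetase, was at 49.4 and 57.97 CPM in the G14.5 knockout and 101.98 and 102.2 CPM in the wild type, and Rnase4, a secreted ribonuclease, at 135.7 and 130.7 against 241 and 261 CPM. Their log2 fold changes were -0.93 and -0.92. The 2 stages have separate cells and controls but share 1 estimate of the spread.

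The 10 genes on the higher side include a pair of regulators with close replicates. Bhlha15 (Mist1), a transcription factor of secretory cells, was at 87.3 and 86.7 CPM in the knockout and 37.8 and 38.9 CPM in the wild type (log2 fold change 1.18, SE 0.20, adjusted p = 0.0582). Ccnd1, cyclin D1, was at 87.5 and 75.5 against 36.9 and 40.7 CPM (log2 fold change 1.07, adjusted p = 0.0582). Ccnd3 was also above the wild type in both libraries, at 40.3 and 44.99 against 20.3 and 24.6 CPM (log2 fold change 0.93, adjusted p = 0.142). Bend5 was at 100.1 and 81.1 against 3.82 and 4.88 CPM at G14.5, but at G0 the wild-type replicates themselves stood at 71.5 and 4.75 CPM. Eif3j2, at 9.39 and 6.11 against 0.381 and 0.125 CPM, and Tagap, at 5.05 and 8.63 against 0.022 and 0.115 CPM, rest on low wild-type values.

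Of these 10 genes, 8 had a log2 fold change above 0 at G0, where the median over all genes was -0.00386. Ccnd1 (1.21, adjusted p = 0.00693) and Bhlha15 (1.54, adjusted p = 0.00234) were called higher at G0, beside 0.475% of all genes. Mki67, a marker of dividing cells, was at 18.6 and 4.29 CPM in the knockout and 12.4 and 10.3 CPM in the wild type, so that the knockout replicates differed by more than the genotypes (log2 fold change 0.02, interval -2.40 to 2.44). Of 29 cell cycle genes, 6 lay above (20.7%) and 2 below (6.90%) the wild type in both knockout libraries, beside 22.5% and 21% of all genes. Their median log2 fold change of -0.01 ranged from -0.83 without knockout replicate 1 to 0.45 without wild-type replicate 1.

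For the insulin genes, the log2 fold changes of Ins1 and Ins2 were 0.13 (interval -0.19 to 0.45) and 0.17 (interval -0.12 to 0.46). Of 23 tested genes of insulin production, glucose sensing and granules, 11 lay below (47.8%) and 1 above (4.35%) in both knockout libraries. Over all genes these shares were 21% and 22.5%. The list had a median of -0.15, -0.07 without knockout replicate 2, and 0 calls. Pcsk1n, an inhibitor of the prohormone convertase PC1, was at 439 and 391 CPM in the knockout and 725 and 701 CPM in the wild type (log2 fold change -0.78, adjusted p = 0.0607). Slc30a8, the zinc transporter of insulin granules, was at 331 and 310 against 484 and 530 CPM (log2 fold change -0.66, adjusted p = 0.105). Slc2a2, the glucose transporter GLUT2, was at 249 and 275 against 331 and 298 CPM (log2 fold change -0.27, interval -0.62 to 0.09). Abcc8, the sulfonylurea receptor of the ATP-sensitive potassium channel, was at 351 and 349 against 464 and 467 CPM (log2 fold change -0.41, adjusted p = 0.327). Trpm5, a cation channel, was at 111.7 and 102.3 against 146.3 and 229 CPM (log2 fold change -0.81, adjusted p = 0.181). Chgb, a granule protein that gestation raises, was at 4021 and 3626 against 4644 and 3837 CPM (log2 fold change -0.15, interval -0.46 to 0.16).

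Of 25 tested β-cell transcription factors, 7 lay below (28%) and 1 above (4%), beside 21% and 22.5% of all genes. Their median of -0.24 shrank to -0.04 without wild-type replicate 2. The one above was Nkx6-1, at 182 and 201 CPM in the knockout and 97.9 and 136.4 CPM in the wild type (log2 fold change 0.71, adjusted p = 0.286). Pdx1 was at 90.7 and 81.6 against 98.3 and 98.5 CPM (log2 fold change -0.19, interval -0.67 to 0.29). Mafa, a factor of mature β cells, was read at 4.65 and 2.96 against 3.13 and 1.42 CPM, and Ucn3, a maturity marker, at 441 and 413 against 717 and 462 CPM (log2 fold change -0.46, interval -0.97 to 0.04, and -0.10 without wild-type replicate 1). Tmem27, a protein of the β-cell surface, was at 272 and 299 against 526 and 581 CPM (log2 fold change -0.95, adjusted p = 0.0607). Of 26 oxidative phosphorylation genes, 15 lay below (57.7%) and 1 above (3.85%). Their median of -0.22 moved between -0.12 and -0.40 as single libraries were left out. Ndufa1 and Cox4i1, subunits of complexes I and IV, had log2 fold changes of -0.52 and -0.42 (adjusted p = 0.484 and 0.398).

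Both arms of the stress response were described, and they lay on opposite sides. Genes of the integrated stress response, which ATF4 drives when translation is checked, and of amino acid and one-carbon synthesis lay on the lower side in the knockout: of 21 tested, 13 lay below the wild type in both knockout libraries, 0 above, and the median log2 fold change was -0.66. Chaperones and degradation factors of the endoplasmic reticulum, which ATF6 and XBP1 drive in the unfolded protein response, lay on the higher side: of 24 tested, 13 lay above, 2 below, and the median was 0.25. Over all genes, 21% lay below and 22.5% above in both knockout libraries. Neither list held a call at G14.5. The promoters below show a gene pair from each arm, taken from RefSeq (GRCm38.p6), 250 bases up to the start of the gene, 5′ to 3′ on the gene's strand. Capitals mark a match to the ER stress element (CCAAT and CCACG, 9 bases apart) in Hspa5 and Calr and to the C/EBP-ATF response element TTGCATCA in Nupr1 and Pycr1, on either strand.
Hspa5 (chr2:34771840-34772089, plus strand): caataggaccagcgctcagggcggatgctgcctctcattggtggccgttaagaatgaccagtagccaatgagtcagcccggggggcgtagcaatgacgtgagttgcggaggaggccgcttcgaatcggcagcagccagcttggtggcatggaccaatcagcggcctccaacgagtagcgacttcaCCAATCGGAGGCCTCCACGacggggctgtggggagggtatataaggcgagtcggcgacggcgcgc
Calr (chr8:84846932-84847181, minus strand): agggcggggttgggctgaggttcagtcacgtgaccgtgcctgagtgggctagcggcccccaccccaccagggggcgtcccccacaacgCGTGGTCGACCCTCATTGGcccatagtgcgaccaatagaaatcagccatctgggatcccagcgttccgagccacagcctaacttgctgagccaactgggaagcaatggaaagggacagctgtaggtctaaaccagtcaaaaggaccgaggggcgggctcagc
Nupr1 (chr7:126625471-126625720, minus strand): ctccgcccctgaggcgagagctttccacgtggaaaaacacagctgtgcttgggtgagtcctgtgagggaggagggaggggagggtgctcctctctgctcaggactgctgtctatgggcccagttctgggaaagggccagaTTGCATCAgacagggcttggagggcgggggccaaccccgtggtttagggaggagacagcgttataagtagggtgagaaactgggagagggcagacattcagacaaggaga
Pycr1 (chr11:120643749-120643998, minus strand): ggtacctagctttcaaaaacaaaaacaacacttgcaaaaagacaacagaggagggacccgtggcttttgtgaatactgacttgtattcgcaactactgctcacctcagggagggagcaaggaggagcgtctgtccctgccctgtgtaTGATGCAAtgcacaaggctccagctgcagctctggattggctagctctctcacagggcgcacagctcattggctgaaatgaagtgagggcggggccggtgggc

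The ER stress element was found in 9 of the 21 unfolded protein response genes with a promoter in the table, and in 0.122% of 27025 promoters of all genes. Of these 9 genes, 6 lay above the wild type in both knockout libraries and 0 below, with a median log2 fold change of 0.42. The C/EBP-ATF element was found in 4 of 19 integrated stress response genes (Nupr1, Pycr1, Chac1 and Slc7a11) and in 0.818% of all promoters. Of the 4, 3 lay below, among them Chac1, which rested on wild-type replicate 2. Over all genes, 21% lay below and 22.5% above. The STAT motif TTCNNNGAA was found in 19 of 213 promoters of genes that gestation raises at least 2-fold (8.92%) and in 7.179% of all. The C/EBP-ATF element was found in 7 of these 213 (3.286%). Among 10078 promoters of the genes tested, the STAT motif was in 5.904%, the C/EBP-ATF element in 0.546% and the ER stress element in 0.159%. A match describes letters in this window and nothing about binding.

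Hspa5, the chaperone BiP, was at 1307 and 1082 CPM in the knockout and 774 and 790 CPM in the wild type (log2 fold change 0.61, interval 0.29 to 0.93, adjusted p = 0.147). Calr, calreticulin, was at 1133 and 1076 against 762 and 728 CPM (log2 fold change 0.57, adjusted p = 0.142). Hsp90b1, the chaperone GRP94, was at 774 and 676 against 539 and 542 CPM (log2 fold change 0.42, adjusted p = 0.368). For all 3 the genotypes did not overlap. Dnajb9, a BiP partner, was at 482 and 423 against 255 and 323 CPM (log2 fold change 0.65, adjusted p = 0.199). The disulfide isomerases Pdia3 and Pdia4 had log2 fold changes of 0.38 and 0.49. A pair of genes in this list ran the other way: Xbp1, at 261 and 217 against 312 and 356 CPM (log2 fold change -0.48), and Herpud1, a degradation factor, at 142.9 and 141.6 against 154.1 and 258 CPM (log2 fold change -0.53, but -0.12 without wild-type replicate 2). At G0, 5 genes of the list were called higher in the knockout and 1 lower, beside 0.475% and 1.06% of all genes, with a median of 0.50.

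Nupr1, a stress-induced chromatin protein, was at 29.3 and 66.2 CPM in the knockout and 120 and 286 CPM in the wild type (log2 fold change -2.09, interval -2.995 to -1.18, adjusted p = 0.103). Pycr1, an enzyme of proline synthesis, was at 40.3 and 34.3 against 57.8 and 74.01 CPM (log2 fold change -0.82, adjusted p = 0.156). Asns, asparagine synthetase, was at 68.8 and 77.5 against 88.04 and 132.1 CPM (log2 fold change -0.59), and Mthfd2, of the mitochondrial folate cycle, at 46.98 and 60.2 against 71.6 and 97.9 CPM (log2 fold change -0.66). In these genes the groups did not overlap, but wild-type replicate 2 was the highest library in each, and without it the log2 fold changes of Nupr1 and Asns were -1.33 and -0.27. Trib3, a pseudokinase induced by ATF4, and Chac1, which breaks down glutathione, rested on that library: Trib3 was at 1.62 and 1.12 against 2.29 and 28.8 CPM, and Chac1 at 13.8 and 12.49 against 14.54 and 122.8 CPM. Atf4 and Ddit3, the regulators, overlapped between the genotypes, and their log2 fold changes of -0.45 and -0.46 were 0.03 and 0.37 without wild-type replicate 2. Without wild-type replicate 2, the median of the list moved from -0.66 to -0.17, and without wild-type replicate 1 to -0.89.

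**Figure D3:**
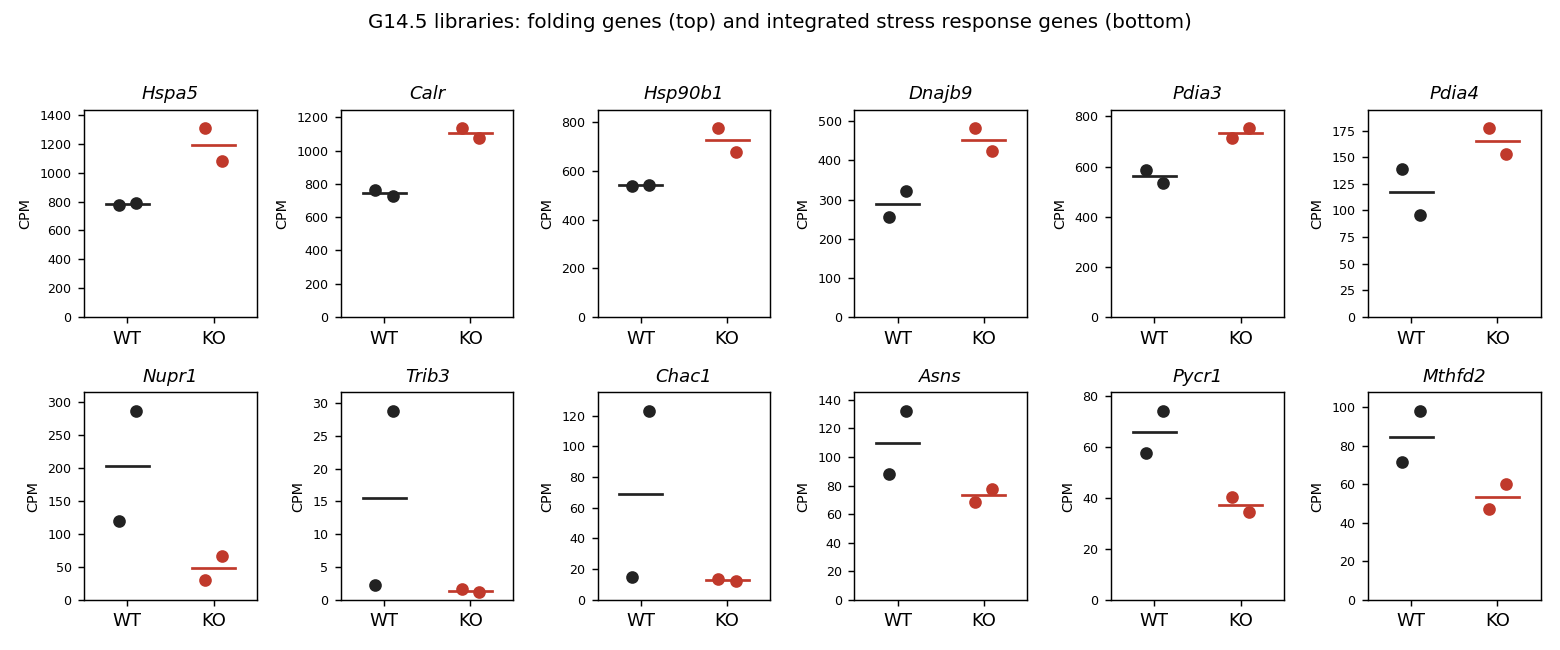
CPM (linear axes from 0) in the G14.5 libraries, 1 point a library, with a bar at the mean of 2; upper row chaperones, lower row integrated stress response genes. The upper genes are higher in both knockout libraries, and in the lower row Trib3 and Chac1 are set apart by 1 wild-type library.

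Other groups follow. CREB targets and immediate-early genes had a median of 0.37, with 7 of 23 above and 1 below, and 0.10 without knockout replicate 2. Among them were Nr4a2, a nuclear receptor, at 14.3 and 7.36 against 3.88 and 4.99 CPM (log2 fold change 1.29, adjusted p = 0.271), Pde10a, a phosphodiesterase, at 43.4 and 41.6 against 7.76 and 21.4 CPM (log2 fold change 1.55, adjusted p = 0.13), and Crem, the cAMP response modulator (log2 fold change 0.61, adjusted p = 0.326). Of 29 tested genes of exocytosis, ion channels and receptors, 6 lay below (20.7%) and 5 above (17.2%), near the shares of all genes. Their median of -0.11 was 0.19 without wild-type replicate 2. Ivd, isovaleryl-CoA dehydrogenase of leucine breakdown and one of the gestation genes named from earlier results, was at 228 and 302 CPM in the knockout and 410 and 546 CPM in the wild type (log2 fold change -0.85, adjusted p = 0.166). That list, chosen on data of this series, had a median of -0.26, with 9 of 19 below and 3 above. Of 14 serotonin genes, 4 lay below (28.6%) and 2 above (14.3%), with a median of -0.14 that shrank to -0.03 without knockout replicate 1. Pts, an enzyme for the cofactor of tryptophan hydroxylase, was at 59.6 and 61.2 against 106.7 and 90.01 CPM (log2 fold change -0.70, adjusted p = 0.156). Of 17 tested genes of p300, CBP and their partners, 4 lay below and 6 above, with a median of -0.08 that was 0.08 without wild-type replicate 2 and -0.02 without knockout replicate 1. Of 12 cytosolic heat-shock genes, 5 lay above and 0 below, with a median of 0.15 that was 0.0003 without knockout replicate 1 and 0.37 without wild-type replicate 1. Interferon and antigen presentation genes had a median of -0.18, with 6 of 19 below and 1 above, and of -0.08 without wild-type replicate 2. Glycolysis, sterol synthesis, acetyl-CoA supply, other acetyltransferases, deacetylases and entry into the endoplasmic reticulum had medians between -0.09 and 0.06, and leaving out single libraries moved the glycolysis median between -0.24 and 0.10 and that of sterol synthesis between -0.09 and 0.42.

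**Figure D4:**
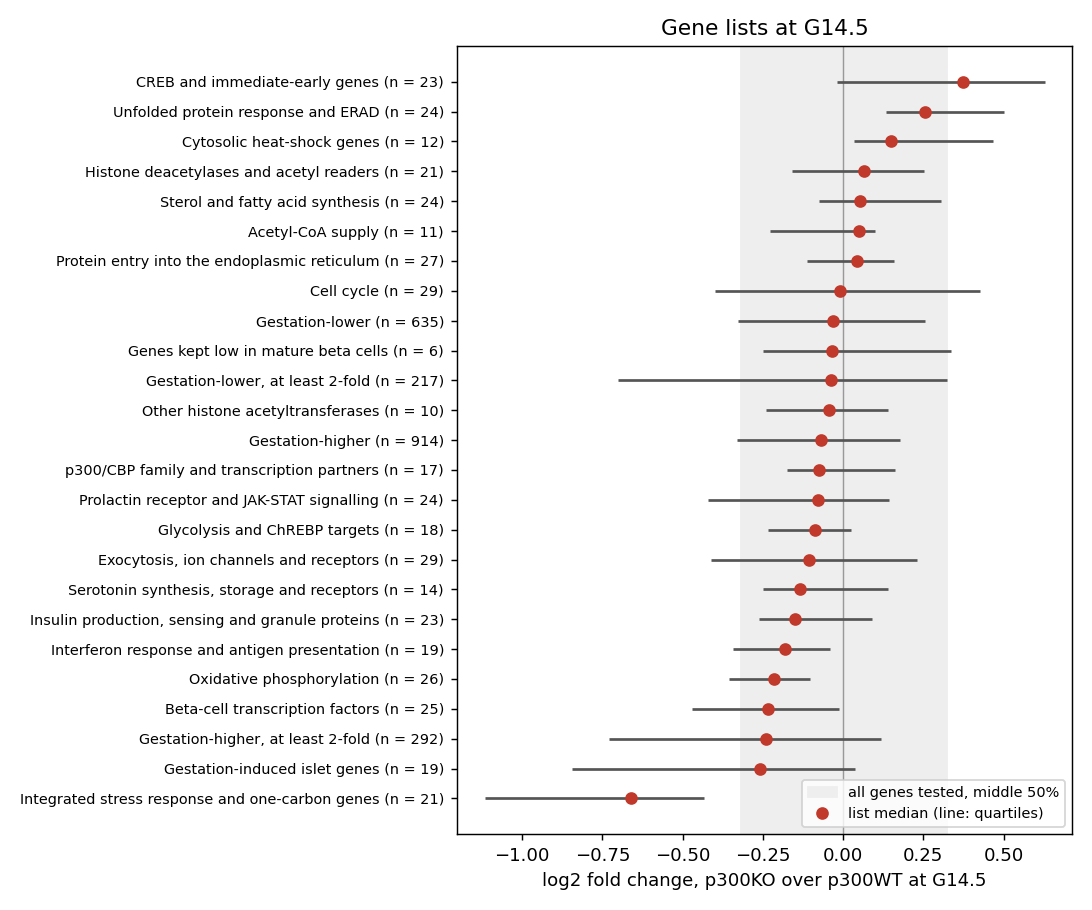
Median log2 fold change at G14.5 (points, knockout over wild type) and quartiles (lines) of 25 gene lists, with the number of genes tested; the grey band holds the middle 50% of all genes. The integrated stress response list is lowest at -0.66, and the CREB list is highest at 0.37.

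The knockout effect at G14.5 was set against that at G0 with the contrast of contrasts in the same fit. At G0, 207 genes were called (1.54%), 64 of them higher in the knockout and the others lower. The difference between the stages was called for 9 genes (0.0668%), in 8 of which the knockout effect was the more positive at G14.5. The count was 1 without G0 knockout replicate 2, 55 and 42 without G0 wild-type replicates 1 and 2, and between 8 and 30 without a G14.5 library, and DESeq2 called 180. The α-cell markers summed to 1291 to 2702 CPM in the G0 libraries, above every G14.5 library. So did the hepatocyte markers at 1003 to 1912 CPM, the δ-cell markers at 199.4 to 767.8 CPM and the PP-cell markers at 196.3 to 438.9 CPM. The α-cell and hepatocyte lists share Ttr, so their sums are not separate measures. The part of these markers in the difference between the stages was not tested. Tph1 had the smallest adjusted p, 0.00618. At G0 it had 0 reads in both knockout libraries and 15 and 52 reads in the wild type (0.559 and 0.705 CPM), at least 14.2-fold lower in the knockout with a floor of 3 reads per library. At G14.5 the knockout level was at least 2969-fold above that floor, and the genotypes differed by -0.26 (log2).

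Cited2, a protein that binds p300 and CBP, was at 17.9 and 18.004 CPM in the G0 knockout and 87.1 and 69.5 CPM in the G0 wild type, and at 60.2 and 63.9 against 66.9 and 62.04 CPM at G14.5. The difference of its log2 fold changes was 2.07 (adjusted p = 0.0109). P2ry1, an ADP receptor, was at 41.1 and 40.7 against 128.9 and 181 CPM at G0 and at 73.5 and 113.2 against 56.9 and 63.7 CPM at G14.5, a difference of 2.55 (adjusted p = 0.0109). Il1r1, the receptor of interleukin 1, moved in the same manner, from 189 and 196 against 353 and 453 CPM to 274 and 221 against 188 and 176 CPM, a difference of 1.51 (adjusted p = 0.0473). In these 3 genes both knockout libraries were below both wild-type libraries at G0 and not at G14.5. Cd59a, a complement inhibitor, went the other way: it was higher in the knockout at G0, at 57.7 and 53.4 against 13.6 and 28.2 CPM, and lower at G14.5, at 20.0 and 20.4 against 40.0 and 59.2 CPM, a difference of -2.69 (adjusted p = 0.0441).

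Cish was not called for the difference between the stages (2.22, adjusted p = 0.0773), but its G0 values were the same in kind: 18.49 and 13.7 CPM in the knockout against 120.8 and 58.4 CPM in the wild type, a G0 log2 fold change of -2.47 (adjusted p = 0.00193). The G0 mice of the pregnancy table, fitted separately, had a mean of 8.64 CPM of Cish. That is below each of these libraries and nearer to the knockout than to the wild type, a gap that was not tested. Of the 292 genes that gestation raises at least 2-fold, 31 were called lower and 2 higher in the knockout at G0, beside 1.06% and 0.475% of all genes, with a median of -0.53, and 0 were called in either direction at G14.5. Whether the list's response differed between the stages was not tested.

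**Figure D5:**
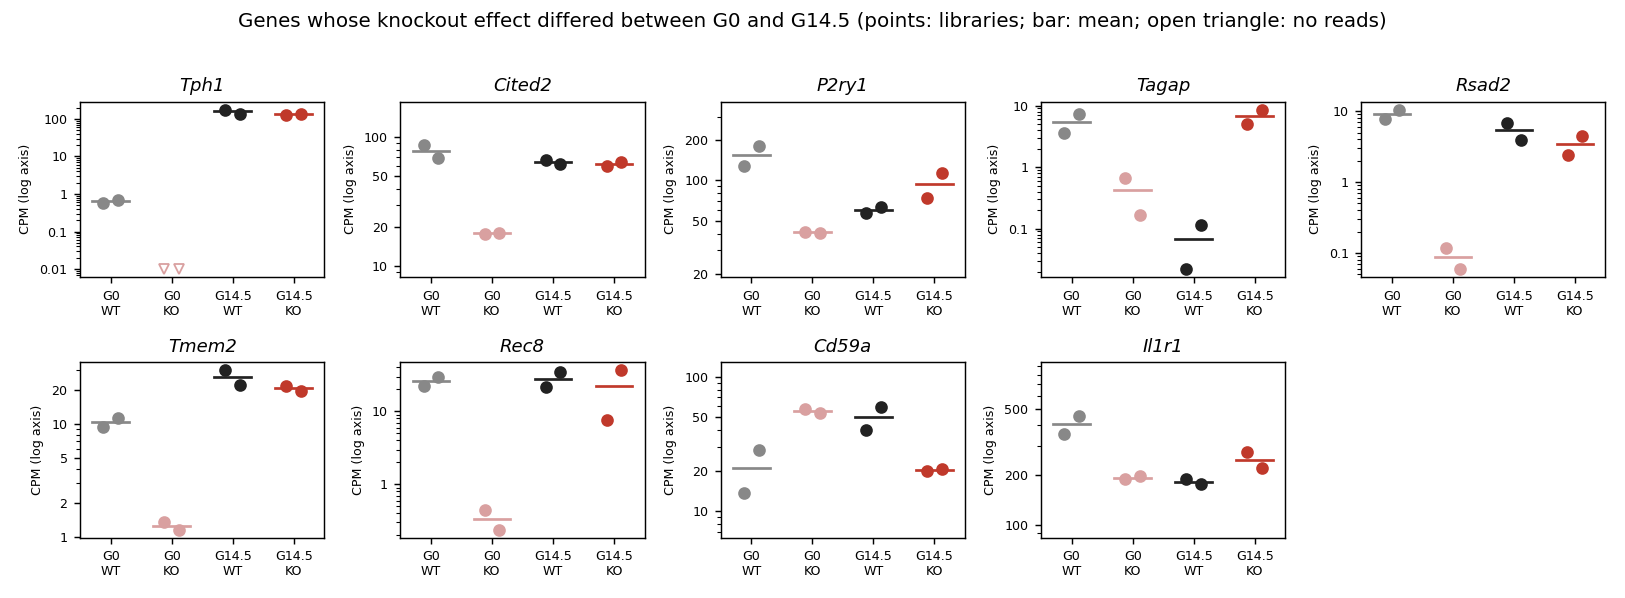
CPM (log axes) by library of the 9 genes called for a knockout effect that differed between G0 and G14.5, 1 point a library, with a bar at the mean of 2 and open triangles for libraries without a read. In Cited2 the G0 knockout libraries sit apart at 17.9 and 18.004 CPM and the other 6 libraries between 60.2 and 87.1 CPM.

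Values from chemical inhibition stand beside those of the knockout, although culture and pregnancy are different settings and the 2 comparisons share no library. A485 lowered 352 of 13554 genes (2.6%) and raised 95 (0.701%). Over all genes tested at G14.5, 21% lay below and 22.5% above the wild type in both p300KO libraries. Of the 339 A485-lowered genes tested at G14.5, 130 (38.3%) lay below and 58 (17.1%) above, with a median of -0.19. Of the 95 raised genes, 28 (29.5%) lay above and 12 below, with a median of 0.13. With A485, the median log2 fold change over all genes was -0.0131. Of the 24 genes near the threshold on the lower side, 22 had a log2 fold change below 0 with A485. Called lower there were 11 of them, beside 2.6% of all genes. Fmo1 was among the 11, with a log2 fold change of -3.94 (adjusted p = 0.0027), as was Slco1a6 at -3.09 (adjusted p = 0.0125). Of the 10 on the higher side, 7 had a value below 0 with A485; Bhlha15 was called lower there, at -1.67 (adjusted p = 0.00879). Prlr was called lower with A485 (log2 fold change -0.94, adjusted p = 0.00819) and Tph1 had -2.37 (adjusted p = 0.148). Trpm5 was called lower too, at -4.07 (adjusted p = 3.07e-05). Ins1 and Ins2 had -1.11 and -0.71 with A485, both called.

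Loss of Acss2 at G14.5 gave 3 calls of 14057 genes (0.0213%), all lower. They included Chac1 (log2 fold change -1.87, adjusted p = 0.00161) and P2ry1 (-1.29, adjusted p = 0.003). Of the 24 genes near the threshold on the lower side in the p300 knockout, 18 had a value below 0 and 0 were called. The median log2 fold change over all genes was -0.00558 in the Acss2 knockout. Fmo1 had -0.11 (adjusted p = 0.968) in the Acss2 knockout, Nupr1 0.35 (adjusted p = 0.832), Tph1 -0.30 (adjusted p = 0.826) and Ep300 -0.05 (adjusted p = 0.964). The differences between the 2 knockouts were not tested, since they come from tables fitted separately.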

How the data were processed

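Reads of single β cells were counted per gene by the authors; Trimmomatic 0.39, featureCounts 2.0.1 and GRCm38 are named in the submitters' processing notes, which name no aligner or annotation. The deposited counts are reads, not molecules, and the p300 table holds 21176 genes with complete values; 1 gene with missing values was left out, and the table ends before the last gene identifiers. Intervals of shares cover counting error only.

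Counts were summed over the cells of each replicate. All 8 p300 libraries were fitted together with edgeR 4.0.16 (R 4.3.3): TMM scaling, filterByExpr on the groups, quasi-likelihood tests, Benjamini-Hochberg adjustment over all genes and calls under 0.05. The code was tested on simulated data. The labels call the replicates biological. Other tables were fitted separately in the same way. Alternatives were DESeq2 1.42.0, limma 3.58.1, other scaling and filters, thinning to equal depth and leaving out libraries. Gene positions are from GENCODE M21.

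Members, gene lists and named genes were chosen with earlier results of these data known. Named genes are the p300, serotonin, prolactin and β-cell genes fixed by name, the 15 highest and 10 lowest gestation effects among genes with a mean of at least 10 CPM in either stage, genes called at G14.5 (none with edgeR) or for the difference between the stages, and members of the lists; genes near the threshold were added after their values were seen.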

Additional observations from a re-analysis of the deposited data

Results flagged for a closer look

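In 9 genes the knockout effect differed between G14.5 and G0 by edgeR's test of that difference. The difference of log2 fold changes, G14.5 minus G0, was 8.52 for Tph1, 2.07 for Cited2, 2.55 for P2ry1, 10.37 for Tagap, 5.92 for Rec8, 6.04 for Rsad2, 2.70 for Tmem2, 1.51 for Il1r1 and -2.69 for Cd59a. The value of Tph1 is a fitted one against libraries without reads and depends on the prior count. Leaving out G0 knockout replicate 2 left 1 call, and G0 wild-type replicate 1 gave 55.

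Rec8, a meiotic cohesin subunit, was at 0.438 and 0.238 CPM in the G0 knockout and 22.3 and 29.8 CPM in the G0 wild type, and at 7.56 and 36.5 against 21.6 and 34.3 CPM at G14.5. Rsad2, the interferon-induced viperin, was at 0.117 and 0.0595 against 7.86 and 10.6 CPM at G0 and at 2.38 and 4.50 against 6.79 and 3.92 CPM at G14.5. Tmem2, a cell-surface hyaluronidase, was at 1.37 and 1.16 against 9.42 and 11.2 CPM at G0 and at 21.6 and 19.6 against 29.6 and 22.004 CPM at G14.5. Tagap, a GTPase-activating protein of lymphocytes, was at 0.672 and 0.164 against 3.61 and 7.29 CPM at G0 and at 5.05 and 8.63 against 0.022 and 0.115 CPM at G14.5.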

How the results depend on the processing

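With 2 libraries a group, the counts of calls moved with the settings. For p300KO against p300WT at G14.5 (0 calls) they were 294 with DESeq2, 315 without a filter on low counts, 15 after thinning, 8 with only the 4 G14.5 libraries and 1 to 32 with each G14.5 library left out; leaving out a G0 library, an alternative chosen after seeing the data, called 0.155% to 0.832% of genes. The counts were 0 with RLE scaling, without Ins1 and Ins2, with limma on cell averages and with the replicate block. For the difference between the stages (9 calls) the counts were 180, 245 and 14 with the first 3 of these settings, 5 with limma, 11 with the replicate block and 1 to 55 with a library left out. Gestation-raised genes called lower (0) became 23, 29, 1 and 1 with DESeq2, no filter, thinning and the 4 libraries, and 0 to 3 with a library left out; gestation-lowered genes called higher (0) became 2 and 8 with DESeq2 and no filter, and 0 to 1. Acss2KO calls (3) were 165 and 269 with DESeq2 and no filter and 2 to 40 with a library left out; A485 calls (447) were 1071, 1206 and 163 to 404. The cause of these moves was not tested.

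The replicate block gave 4 and 629 calls for Acss2KO and A485. For same-numbered libraries of the p300 table, the labels give nothing shared but the number. Deviations from the group means correlated between -0.12 and 0.043 across groups. Whether same-numbered libraries shared a batch was not tested. Under the block Mki67 had a log2 fold change of -0.00238 and Gbp8 0.0131; with limma Mki67 had -0.28 and Tph2 -0.00628. With 1 library left out, the sign turned for Crebbp (-0.188 to 0.0325), Tph2 (-0.159 to 0.235), Mki67 (-1.40 to 0.72), Gbp8 (-0.811 to 0.885), Neb (-0.154 to 0.0390), Crispld2 (-0.999 to 0.387), Chgb (up to 0.00849), Rec8 (-1.88 to 0.385), Cited2 (-0.107 to 0.0139), Atf4 (-0.795 to 0.0285) and Ddit3 (-0.968 to 0.370).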
